A study of Mus musculus with 9 samples.

Results

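The 10 genes described here code for subunits of the transcription factor NF-kB and for proteins that limit its activity. They were taken by name, not by level, from the 37980 genes of the deposited table. The choice was made with earlier results of these data known, so comparisons of the members with all tested genes are descriptions only. Nfkb1, Nfkb2, Rel and Relb code for DNA-binding subunits, Nfkbia and Nfkbie for inhibitors that hold those subunits in the cytoplasm, Bcl3, Nfkbiz and Nfkbid for related proteins that act in the nucleus, and Tnfaip3 for a ubiquitin-editing enzyme. All 10 were found by symbol and all 10 passed the filter on low values, so no member is missing from the counts that follow.

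In unstimulated cells, NF-kB dimers are kept in the cytoplasm by IkB proteins. Signals from cytokine receptors and Toll-like receptors activate the IkB kinase complex, the IkB proteins are degraded, and the dimers enter the nucleus and switch on their target genes. Among the first targets are the genes of the inhibitors themselves, and their products, newly made IkB proteins and Tnfaip3, end the response in a feedback loop. In bone marrow the pathway is known for its part in inflammatory myelopoiesis, in the maintenance of stem cells and in B-cell development.

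The study sequenced polyA RNA of myeloid progenitors (MP), sorted as Lin-ckit+Sca1- cells from the bone marrow of C57BL/6 mice that had been irradiated as adults and transplanted. In 4 samples, called NA MP, the cells were Tdtomato+ descendants of multipotent progenitors with the Nup98-Hoxa10hd fusion gene, which was expressed from the Rosa26 locus once Vav-Cre, active throughout the blood system, had removed a stop cassette. In 5 samples, called WT MP, the cells were CD45.2+ and came from recipients of wild-type multipotent progenitors. Each sample held 100000 cells, sorted 3 months after transplantation by the labels, while the study's methods give a later time. The recipients also received helper bone-marrow cells. Elsewhere in the study CD45.2 marks recipient cells, and wild-type donor cells are followed by the alternative form of that marker. The study also reports that the wild-type donor share in blood fell early and later became undetectable. Whether the WT MPs descended from the donor, the helper or the host cannot be told apart from these data. How many mice went into a sample is not stated, so the tests below measure the spread between samples, which may be technical. The comparison of NA MP with WT MP asks how the fusion gene's presence goes with gene expression in myeloid progenitors.

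Values are normalized counts, that is, the authors' RSEM gene counts divided by a size factor for each sample. The reads recovered from them came to 5557720, 6600725, 6048378 and 8106141 in NA MP replicates 1 to 4 and to 6141705, 7751465, 6509421, 6636190 and 7086157 in WT MP replicates 1 to 5. A single read was worth 0.827 to 1.2 normalized counts, and the limit that a count of 0 allows (3 reads in a library) was 2.48 to 3.60 normalized counts. These limits cover counting error only.

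The labels were checked first on the fusion partners, Nup98 and Hoxa10, and on Hoxa9. Nup98 stood at 956 ± 81.8 normalized counts in NA MP (SD, n = 4) and 599 ± 29.9 in WT MP (SD, n = 5), Hoxa10 at 129 ± 17.7 and 8.05 ± 2.57, and Hoxa9 at 660.2 ± 45.3 and 161 ± 13.7. These 3 genes separated the groups without overlap. The myeloid progenitor marker Mpo was high in both groups, at 107675 normalized counts on average in NA MP and 103947 in WT MP, and was not called (log2 fold change 0.05, adjusted p 0.175), though it was without NA MP replicate 1 (0.00122) or without NA MP replicates 1 and 2 (0.0139). All 10 listed progenitor markers passed the filter, of which Prtn3, Ctsg, Ms4a3 and Cd34 were higher in NA MP by log2 fold changes of 0.11 to 0.19 and Fcgr3 was lower (-0.57).

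Of 11987 genes tested with limma, 2030 were higher in NA MP at an adjusted p under 0.05 (16.9%) and 2077 were lower (17.3%). Among the 10 members, 6 were higher, namely Nfkb1, Relb, Nfkbia, Nfkbie, Nfkbiz and Tnfaip3, and 0 were lower. At an unadjusted p under 0.05, and with limma voom on the recovered reads, the number of members lower was also 0. A rise of at least 2-fold was found for 3 members, Relb, Nfkbiz and Tnfaip3, against 2.56% of all tested genes. When single samples were left out, only Tnfaip3 stayed called and above 2-fold throughout (log2 fold change at least 1.45). Relb went down to 0.97, and Nfkbiz was called in 4 of 9 such fits. In 7 members the lowest NA MP sample exceeded the highest WT MP sample, against 13.5% of all tested genes. The members' median log2 fold change was 0.40 and that of all tested genes was -0.0081. Each of the 10 members kept its direction, and the same 6 were called, when the samples were scaled by recomputed median ratios or to equal totals. In bulk RNA of sorted cells, more cells of a type and more RNA per cell cannot be told apart, and this holds for every difference given here.

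**Figure D1:**
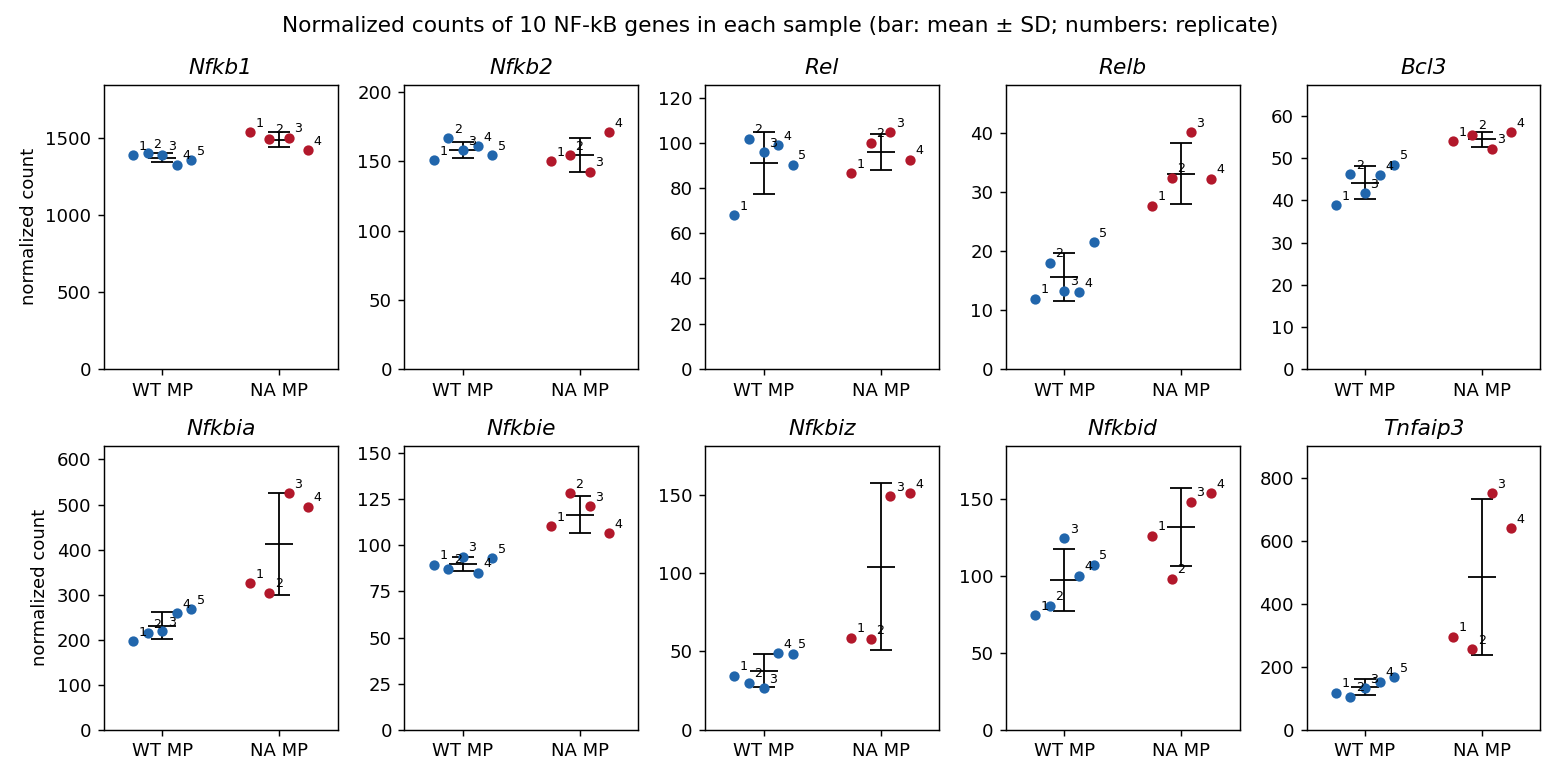
Normalized counts of the 10 members in each sample, with the group mean and SD as bars and the replicate number beside each point; every axis starts at 0. Tnfaip3 spans 104 to 167 in WT MP and 256 to 753 in NA MP, whereas Nfkb2 spans 151 to 167 and 143 to 171.

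Nfkb1 codes for the precursor of the most widely used DNA-binding partner in NF-kB dimers (ENSMUSG00000028163, chr3:135584655-135691547 of GRCm38, minus strand). It measured 1534, 1491, 1499 and 1419 normalized counts in NA MP replicates 1 to 4 and 1386, 1399, 1385, 1323 and 1355 in WT MP replicates 1 to 5. All 4 NA MP samples lay above all 5 WT MP samples, and replicate 4 was the lowest within each group. The log2 fold change was 0.12 (95% interval 0.05 to 0.18, adjusted p 0.00515), the smallest of the 6 called members. With 1278 to 1717 recovered reads per sample, Nfkb1 was also the member with the most reads. Its call ended when NA MP replicates 1 and 2 were both left out (0.09, adjusted p 0.0891) and held in each of the 20 other alternatives.

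Relb codes for the subunit that pairs with the product of Nfkb2 in the slower, non-canonical arm of the pathway (ENSMUSG00000002983, chr7:19606217-19629438, minus strand). Its normalized counts were 27.6, 32.4, 40.1 and 32.2 in NA MP and 11.9, 18.0, 13.2, 13.01 and 21.4 in WT MP. The groups did not overlap, and NA MP replicate 3 was highest. The log2 fold change was 1.07 (0.64 to 1.49, adjusted p 8.47e-05), or 2.09-fold. These values rest on 11 to 39 recovered reads per sample, the fewest of any member. Relb was called in all 21 alternatives, with log2 fold changes of 0.90 to 1.196.

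The other subunits did not pass the test. Nfkb2, whose product is processed in the non-canonical arm (ENSMUSG00000025225, chr19:46304320-46312385, plus strand), measured 150.1, 155, 143 and 171 in NA MP and 151, 167, 158, 161 and 155 in WT MP. The NA MP values lay on both sides of the WT MP values. Its log2 fold change was -0.037, with an interval of -0.20 to 0.12 (adjusted p 0.762), and its sign changed when NA MP replicate 3 was left out (0.0012). Other genes on the opposite strand share 18.1% of the exon bases of Nfkb2, and the library kit named by the study does not mark strand, so reads from those bases cannot be told apart.

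Rel, a subunit best known from lymphoid and myeloid cells (ENSMUSG00000020275, chr11:23736847-23770970, minus strand), measured 86.4, 100.1, 105 and 92.6 in NA MP and 68.0, 102, 95.8, 99.1 and 90.4 in WT MP. The groups overlapped, with WT MP replicate 1 the lowest of all 9 samples. Its log2 fold change was 0.086, with an interval of -0.14 to 0.31 (adjusted p 0.594), and without WT MP replicate 1 it was -0.015. Rela, the remaining subunit and the main activating one, ranged from 514 to 604 in NA MP and from 505.3 to 540.4 in WT MP, a log2 fold change of 0.037 with an interval of -0.06 to 0.14 (adjusted p 0.600). Without NA MP replicate 2, the highest sample for Rela, it was -0.013. The intervals of Nfkb2, Rel and Rela leave out a 2-fold difference either way.

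**Figure D2:**
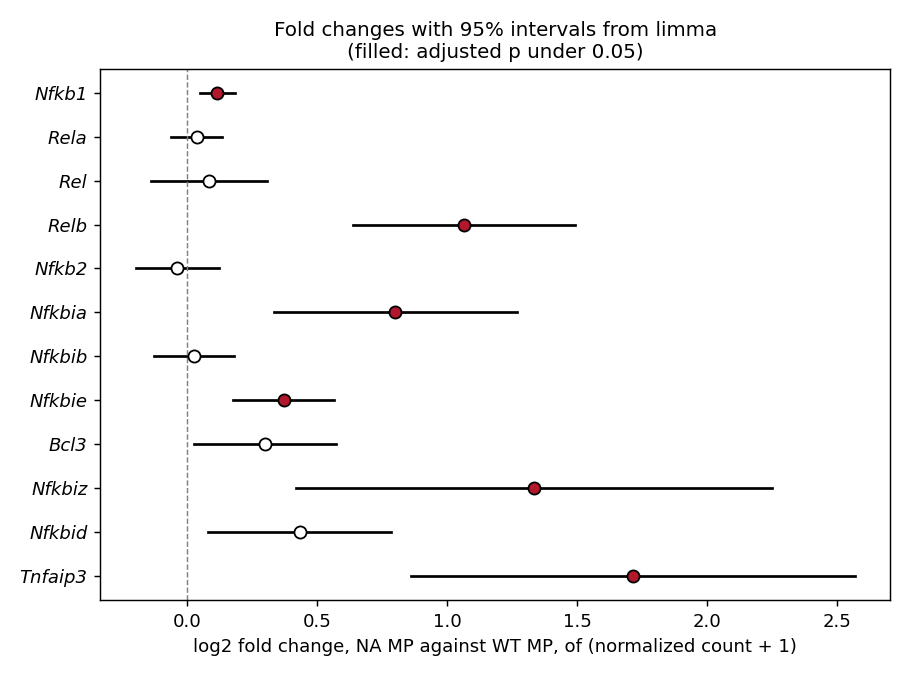
Log2 fold change of NA MP against WT MP with its 95% interval from limma, for the 10 members and for Rela and Nfkbib; filled points have an adjusted p under 0.05. Tnfaip3 is farthest to the right at 1.71, and the intervals of Nfkb2, Rel, Rela and Nfkbib include 0.

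Nfkbia codes for IkB alpha, the inhibitor that is degraded and made again most quickly (ENSMUSG00000021025, chr12:55489410-55492647, minus strand). Its normalized counts were 325, 304, 526 and 495 in NA MP replicates 1 to 4 and 196, 214, 219, 259 and 267 in WT MP replicates 1 to 5. The groups did not overlap, and NA MP replicates 3 and 4 stood apart from replicates 1 and 2. NA MP was higher by a log2 fold change of 0.80 (0.33 to 1.27, adjusted p 0.0176). It was called in all 9 fits that left out a single sample, with adjusted p from 0.0111 to 0.0466, but not at a threshold of 0.01. Without NA MP replicates 3 and 4 it was 0.45 (adjusted p 0.000591), and without replicates 1 and 2 it was 1.15 (adjusted p 4.09e-11).

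Nfkbie codes for IkB epsilon, an inhibitor whose induction follows that of IkB alpha with a delay (ENSMUSG00000023947, chr17:45555703-45563169, plus strand). It measured 110.4, 128, 121 and 107 in NA MP and 89.6, 87.3, 93.7, 85.1 and 93.2 in WT MP. All NA MP samples were above all WT MP samples, but here replicate 2 was the highest and replicate 4 the lowest of NA MP. The difference came to a log2 fold change of 0.37 (0.18 to 0.57, adjusted p 0.00214), and it was called in all 21 alternatives. Nfkbib, which codes for IkB beta, measured 186 to 204 in NA MP and 169.6 to 216 in WT MP, with a log2 fold change of 0.028 and an interval of -0.12 to 0.18 (adjusted p 0.811). Its sign changed to -0.019 without WT MP replicate 5, and 16.4% of its exon bases overlap genes on the opposite strand.

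Tnfaip3 codes for the ubiquitin-editing enzyme that shuts off the signal upstream of the IkB kinases (ENSMUSG00000019850, chr10:19000910-19015657, minus strand). It measured 295, 256, 753 and 641 normalized counts in NA MP replicates 1 to 4 and 118, 104, 131, 152 and 167 in WT MP replicates 1 to 5. The groups did not overlap, and within NA MP replicates 3 and 4 were more than 2-fold above replicates 1 and 2. The log2 fold change was 1.71 (0.86 to 2.57, adjusted p 0.00857), the largest of the members, and Tnfaip3 was called in all 21 alternatives. Its size turned on the pair of samples kept: 1.05 (adjusted p 3.91e-05) without NA MP replicates 3 and 4, and 2.38 (adjusted p 2.98e-05) without replicates 1 and 2.

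Nfkbiz codes for IkB zeta, a nuclear protein needed for the later NF-kB targets (ENSMUSG00000035356, chr16:55811375-55838899, minus strand). It measured 58.8, 57.6, 149 and 151 in NA MP and 34.5, 29.9, 26.5, 49.0 and 48.5 in WT MP. The groups did not overlap, though NA MP replicates 1 and 2 lay close to WT MP replicates 4 and 5 and far below NA MP replicates 3 and 4. With a log2 fold change of 1.33 (0.42 to 2.25), Nfkbiz had an adjusted p of 0.0337. This call is the least steady of the 6. It was lost without NA MP replicate 3 (adjusted p 0.0760), NA MP replicate 4 (0.0708), WT MP replicate 1 (0.0669), WT MP replicate 2 (0.0747) or WT MP replicate 3 (0.0744), with no filter on low values (0.0506), with limma voom (0.0558) and at a threshold of 0.01. Nfkbiz stood at 0.66 (adjusted p 0.0163) without NA MP replicates 3 and 4 and 2.01 (adjusted p 2.39e-10) without replicates 1 and 2.

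Nfkbid, which codes for a nuclear IkB protein first studied in lymphocytes (ENSMUSG00000036931, chr7:30421732-30428746, plus strand), measured 126, 98.1, 148 and 154 in NA MP and 74.5, 80.4, 124, 100.1 and 107 in WT MP. The groups overlapped, with NA MP replicate 2 below WT MP replicates 3, 4 and 5. The log2 fold change of 0.43 (0.08 to 0.79) was not called, at an adjusted p of 0.0560. It passed the threshold without NA MP replicate 2 (adjusted p 0.00186), without WT MP replicate 3 (0.00456), without NA MP replicates 1 and 2 (0.000897), without limma's robust option (0.0147), and with replicate number as a block (0.000270), a fit that also leaves out WT MP replicate 5 (0.0628 without that sample alone). Without NA MP replicates 3 and 4 it fell to 0.22 (adjusted p 0.360). Over the single-sample fits the adjusted p of Nfkbid ran from 0.00186 to 0.137.

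Bcl3 codes for a nuclear IkB protein that can activate as well as repress (ENSMUSG00000053175, chr7:19808462-19822770, minus strand). It measured 54.0, 55.6, 52.3 and 56.2 in NA MP and 38.8, 46.2, 41.8, 46.0 and 48.5 in WT MP. No WT MP sample reached the NA MP values, which were nearly equal to each other. Its log2 fold change of 0.30 (0.03 to 0.57) missed the threshold (adjusted p 0.0834) and did so in all 21 alternatives. A gene on the opposite strand shares 6.51% of its exon bases.

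Between genes, levels are given as normalized counts per kb of annotated exon, with the exons of all of a gene's annotated transcripts joined. That length, from 1.61 kb for Nfkbia to 12.1 kb for Nfkb1, can exceed the length of the transcript in use. The order below depends on it, and an order per length of transcript was not determined. In WT MP the means ran, from the highest, Rela 173, Nfkbia 144, Nfkb1 114, Nfkbib 89.7, Nfkbid 41.5, Nfkb2 34.5, Nfkbie 29.5, Tnfaip3 18.6, Bcl3 17.9, Rel 12.2, Nfkbiz 7.51 and Relb 3.99 per kb. Neighbours in this order whose sample ranges overlapped were Rela and Nfkbia, Nfkbid and Nfkb2, Tnfaip3 and Bcl3, Rel and Nfkbiz, and Nfkbiz and Relb. In NA MP, Nfkbia came first at 256 per kb, with a range that overlapped that of Rela at 177, and the mean of Tnfaip3, at 67.3 per kb, came between those of Nfkbib and Nfkbid, with a range (35.4 to 104) that overlapped both. Relb came last in both groups, at 8.51 per kb in NA MP. Per kb of joined exons, the DNA-binding subunits ranged in WT MP from Relb, the lowest mean of the 12 genes, to Rela, the highest.

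Members differed in how far samples of the same group lay apart. Within NA MP the coefficient of variation was 51.0% for Tnfaip3, 51.0% for Nfkbiz and 27.6% for Nfkbia, then 19.2% for Nfkbid and 15.6% for Relb, and it was under 10% for the other 5, from 3.19% for Bcl3 to 8.56% for Nfkbie. For Tnfaip3, Nfkbia, Nfkbiz and Nfkbid, replicates 3 and 4 were the highest NA MP samples. In Relb, Nfkbie, Bcl3 and Nfkb1 this order was absent: the highest NA MP sample was replicate 3, 2, 4 and 1 in turn. In WT MP the coefficient of variation was highest for Nfkbiz (27.8%), Relb (26.1%) and Nfkbid (20.8%) and lowest for Nfkb1 (2.24%), and Tnfaip3 had 18.8%. Replicates 4 and 5 were the highest WT MP samples for Tnfaip3, Nfkbia and Nfkbiz. The mean of log2(normalized count + 1) over the 10 members was 7.11, 7.11, 7.55 and 7.49 in NA MP replicates 1 to 4 and 6.52, 6.66, 6.67, 6.77 and 6.87 in WT MP replicates 1 to 5.

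**Figure D3:**
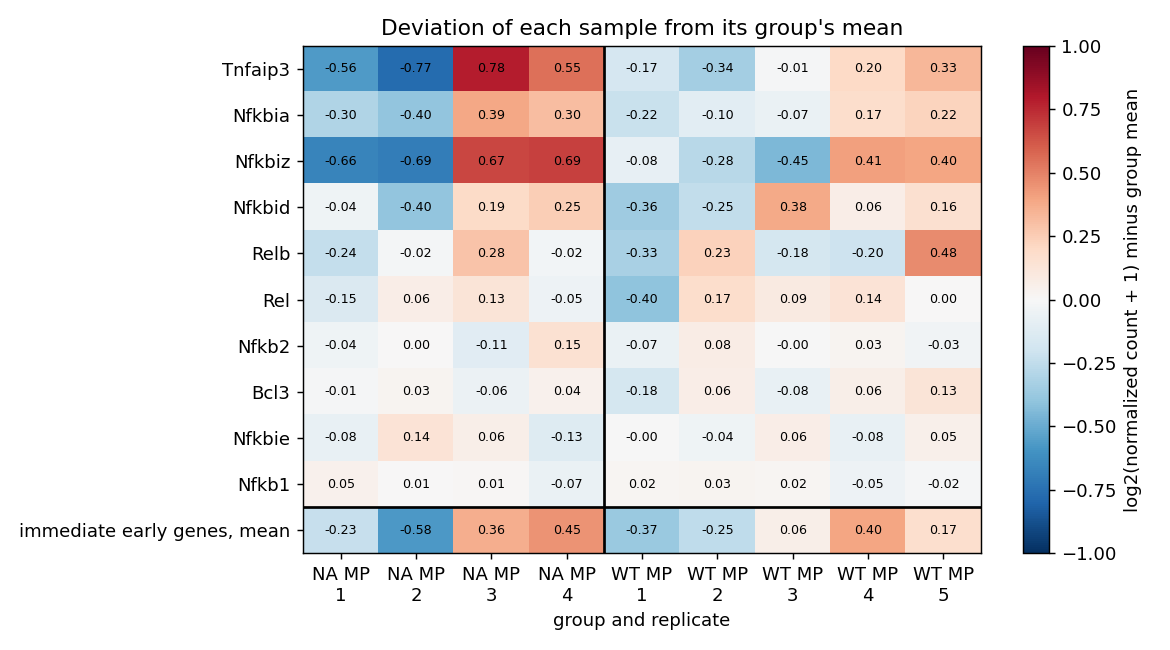
Log2(normalized count + 1) minus the mean of the sample's group, for the 10 members (rows) in the 9 samples (columns), with the mean of 19 immediate early genes as the last row. In Tnfaip3, NA MP replicates 1 to 4 deviate by -0.56, -0.77, 0.78 and 0.55, and in Nfkb1 by no more than 0.07 either way.

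Immediate early genes, which cells switch on within minutes of stimulation or handling, had the same high samples. Their summed normalized counts were 22865, 16668, 31126 and 33113 in NA MP replicates 1 to 4 and 5968, 6714, 7521, 9245 and 7862 in WT MP replicates 1 to 5. NA MP replicates 3 and 4 were the highest in NA MP, and WT MP replicates 4 and 5 the highest in WT MP, as for Tnfaip3, Nfkbia and Nfkbiz. Of 24 listed, 19 were tested, 15 were higher and 1, Myc, was lower, and the median log2 fold change was 2.05. Over all tested genes, 16.9% were higher and 17.3% lower. The call of Myc (-0.11, adjusted p 0.00542) was lost without NA MP replicates 3 and 4 (-0.05, adjusted p 0.332). Jun was the most abundant over the 9 samples, at 5342 normalized counts on average in NA MP and 1307 in WT MP. The mean log2 value of the 19 genes was 9.17, 8.82, 9.76 and 9.85 in NA MP and 7.20, 7.32, 7.63, 7.96 and 7.73 in WT MP, so no NA MP sample was as low as any WT MP sample. What part the state shown by these genes has in the members' differences was not tested. Leaving out NA MP replicates 3 and 4 does not test that part, because the samples kept (9.17 and 8.82) exceeded every WT MP sample. In that fit all 6 members were called, with log2 fold changes of 1.05 for Tnfaip3 (adjusted p 3.91e-05), 0.94 for Relb (0.0103) and 0.66 for Nfkbiz (0.0163). Those of the others were 0.45 for Nfkbia (0.000591), 0.40 for Nfkbie (0.0105) and 0.14 for Nfkb1 (0.00787). Without NA MP replicates 1 and 2 instead, Nfkb1 lost its call (0.09, adjusted p 0.0891) and Nfkbid gained one.

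**Figure D4:**
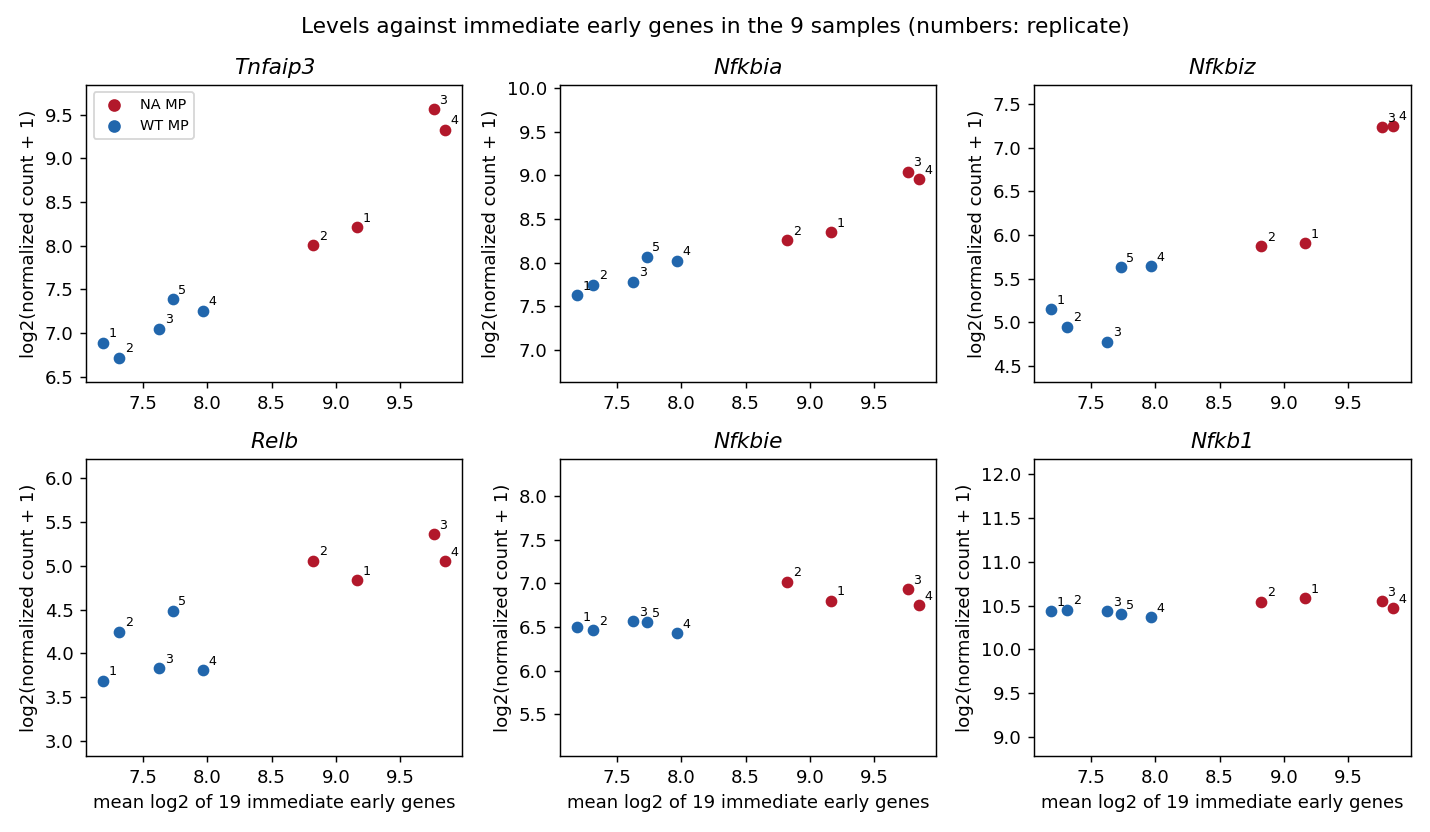
Log2(normalized count + 1) of 6 members against the mean log2 value of 19 immediate early genes in the 9 samples, with the replicate number beside each point; all panels span the same number of log2 units. For Tnfaip3 the samples order much as the immediate early mean does, from 7.20 to 9.85 on the horizontal axis, while Nfkbie and Nfkb1 differ between the groups with little spread within them.

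Markers of several other cell types also differed between the groups, and their part in the members' values was not tested. The counts of each marker list, here and in the next paragraph, stand beside 16.9% higher and 17.3% lower over all tested genes. All 13 tested of 14 pro-B and pre-B markers were higher in NA MP, with summed normalized counts of 1539, 2731, 2735 and 2066 in NA MP and 396, 430, 416, 392 and 414 in WT MP, and Dntt as the most abundant over the 9 samples. Mature B-cell markers summed to 316, 474, 593 and 572 in NA MP and 475, 499.7, 511, 569 and 475 in WT MP, with 2 of 8 tested, Cd22 and the most abundant, Cd74, and Ms4a1 at 0 in 7 samples and under 1 normalized count in the others. Cd74 alone gave most of each sum (301, 441, 558 and 544 in NA MP replicates 1 to 4, 454 to 553 in WT MP). These sums therefore follow that gene. Cd74 was not called, except as higher without NA MP replicates 1 and 2 (0.17, adjusted p 0.0330), and Cd22 was higher (0.71, adjusted p 0.0404) but lost its call in 7 of the 9 single-sample fits (adjusted p 0.0546 to 0.166) and with no filter on low values (0.0505). T- and NK-cell markers summed to 51.6 to 71.9 in NA MP and 11.98 to 21.01 in WT MP, with 1 of 8 tested (Lck, higher, and the most abundant) and Cd3e and Cd3g at 0 in all 9 samples.

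Late neutrophil markers summed to 3425, 4012, 5317 and 5251 in NA MP and 2890, 3261, 3178, 3239.9 and 3411 in WT MP, with S100a8 the most abundant and Retnlg under 7 normalized counts in every sample. NA MP replicates 3 and 4 were the highest on this list too, as for Tnfaip3, Nfkbia and Nfkbiz. Of 8 tested of 10, Camp, Ngp and S100a9 were higher and Mmp8 lower, but of the 9 single-sample fits S100a9 was called in the 1 without NA MP replicate 1 and not in the others (adjusted p 0.0524 to 0.0815), and Ngp was lost without NA MP replicate 4 (0.0526) or without replicates 3 and 4 (0.134). Mmp8 (-1.09) lost its call without NA MP replicates 1 and 2 (-0.55, adjusted p 0.117), and S100a8, not called with all samples (0.27, adjusted p 0.125), was called without NA MP replicate 1 (8.15e-09), without replicates 1 and 2 (2.53e-13) and without the robust option (0.00426). Monocyte and macrophage markers summed to 7087, 8057, 8300 and 7483 in NA MP and 6692 to 6984 in WT MP, with 9 of 12 tested, 6 higher, 2 lower (Ccr2 and Cx3cr1), F13a1 the most abundant and Fcgr1 at 6.11 or less in every sample. Cx3cr1 lost its call without NA MP replicate 1 (adjusted p 0.0577), 2 (0.0530) or 4 (0.0502), WT MP replicate 3 (0.0690) or NA MP replicates 1 and 2 (0.161). Mast-cell and basophil markers summed to 3507 to 3970 in NA MP and 2607 to 2871 in WT MP, with 5 of 7 tested higher and 1, Hdc, lower (-0.24). Hdc was the most abundant over the 9 samples, and Mcpt8, 1 of the 5, lost its call without NA MP replicate 2 (adjusted p 0.0662) or 3 (0.0640) or without replicates 3 and 4 (0.118). Stem-cell markers, 4 of 6 tested higher and 1 lower, summed to 874 to 1018 and 566 to 636 (Flt3 the most abundant), and erythroid markers, 7 of 9 tested lower, to 4593 to 5766 and 7944 to 8813 (Car1). The sums overlapped between the groups for dendritic-cell markers, at 537 to 655 in NA MP and 570 to 655 in WT MP, and for megakaryocyte markers, at 1378 to 1610 and 1331 to 1499. Of 4 and 5 tested, 1 was higher in each list (Bst2 and Itga2b, the most abundant) and 1 lower (H2-Aa and Vwf), and of these only Vwf was called in every fit at the 0.05 threshold. Bst2 was lost without NA MP replicates 2 (0.0675) or 3 (0.0558), WT MP replicate 5 (0.0539) or NA MP replicates 1 and 2 (0.102), H2-Aa without NA MP replicate 2 (0.0680) or 1 and 2 (0.417), and Itga2b without NA MP replicates 1 and 2 (0.167).

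The rest of the pathway was taken from 7 lists by role, with 112 genes in all, of which 85 were tested, 27 were higher and 8 were lower. The counts of these lists stand beside 16.9% higher and 17.3% lower over all tested genes. No list was tested as a set. The median log2 fold change of the 85 was 0.09, against 0.40 for the 10 members. At least 2-fold higher were 5, against 2.56% of all tested genes. Sdc4, among the 5, passed the filter through NA MP alone. Of the 3 other family members (Rela, Nfkbib and Nfkbil1), 0 were called by limma or by limma voom on all 9 samples, with 1, Nfkbil1, at an unadjusted p under 0.05 (log2 fold change -0.19, adjusted p 0.110). Without NA MP replicates 3 and 4, Nfkbil1 was called lower (-0.30, adjusted p 0.0436).

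Ligands that start the signal were mostly too low to test, with 2 of 10 above the filter. Tnf measured 54.0, 45.5, 77.9 and 104 in NA MP and 19.4, 18.8, 19.4, 35.0 and 30.7 in WT MP. The groups did not overlap, and as for Tnfaip3 the highest samples were replicates 3 and 4 of NA MP and 4 and 5 of WT MP. NA MP was higher by a log2 fold change of 1.45 (adjusted p 0.000119), and without NA MP replicates 3 and 4 it was 1.03 (adjusted p 0.00113). Ltb was not called (0.53, adjusted p 0.122).

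Of 14 tested receptors, 4 were higher (Tlr2, Cd14, Ltbr and Tnfrsf13b) and 3 lower (Il1r1, Il1rl1 and Tlr1), with Cd14 at a log2 fold change of 0.93 (adjusted p 5.78e-06). Of 21 tested adaptors and ligases, 4 were higher by small amounts (Tradd 0.22, Irak1 0.10, Birc3 0.24 and Bcl10 0.16), and of 11 tested kinases Ikbkb was higher (0.11) and Map3k7 (-0.24) and Tab3 (-0.23) were lower. Beside 16.9% higher and 17.3% lower over all tested genes, these counts are not read as results about the roles. Calls ended when 1 sample was left out for Tlr2 (NA MP replicate 3, adjusted p 0.0853, or WT MP replicate 2, 0.0533), Ltbr (NA MP replicate 2, 0.0533), Tlr1 (NA MP replicate 1, 0.106), Irak1 (WT MP replicate 2, 0.0953), Ikbkb (NA MP replicate 4, 0.0777) and Il1r1 (NA MP replicates 1, 0.0667, or 3, 0.0541, or WT MP replicates 4, 0.121, or 5, 0.0535). The same held for Bcl10 (NA MP replicates 3, 0.0594, or 4, 0.183, or WT MP replicates 3, 0.0883, 4, 0.0800, or 5, 0.0766) and Tab3 (NA MP replicates 2, 0.0555, or 3, 0.103, or WT MP replicates 3, 0.0757, or 5, 0.0788). Leaving out NA MP replicates 3 and 4 ended the calls of Tlr2 (0.306), Il1r1 (0.0715), Irak1 (0.0901), Birc3 (0.0603), Bcl10 (0.339), Ikbkb (0.134) and Tab3 (0.155), and leaving out NA MP replicates 1 and 2 those of Ltbr (0.0645), Il1r1 (0.129), Tlr1 (0.398), Tradd (0.157) and Irak1 (0.0664). Bcl10 was also lost under equal totals (0.0607), and Bcl10 (0.0664) and Il1r1 (0.0516) with no filter on low values. With replicate number as a block, and so without WT MP replicate 5, Bcl10 (0.0862), Tab3 (0.0828), Ltbr (0.0525) and Il1r1 (0.0562) were lost. Traf5 (0.40, adjusted p 0.0943) and Map3k8 (-0.27, adjusted p 0.387), the largest differences among adaptors and kinases, were not called, though Traf5 was without NA MP replicate 3 (0.0325) or WT MP replicate 4 (0.0495).

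Of 18 other negative regulators, all of them tested, 8 were higher and 1, N4bp1, lower (-0.17). Nlrc3, a member of a family of cytoplasmic sensors, had the largest difference (log2 fold change 0.89, adjusted p 0.000165), with overlapping groups. Of 16 tested target genes, 9 were higher, Sdc4 among them, and 2, Vcam1 (-0.25) and Tnfaip2 (-0.44), lower. The chemokine genes Ccl4 (2.83, adjusted p 0.00479) and Ccl3 (2.36, adjusted p 0.00584) were among the most raised, at 2.14 and 1.86 without NA MP replicates 3 and 4 and 3.52 and 2.85 without replicates 1 and 2. The surface proteoglycan gene Sdc4 (log2 fold change 2.70) passed the filter through NA MP alone, with 3 to 7 reads in each WT MP sample. The filter thus fixed its direction. Its call (adjusted p 1.70e-09) carries no weight, here or in the counts that include it. The size of its difference is also imprecise (2.01 with a pseudocount of 5). Ccl4 measured 60.0, 31.3, 111 and 117 in NA MP and 4.32, 5.99, 9.17, 20.01 and 12.1 in WT MP, again highest in NA MP replicates 3 and 4, whereas Sdc4, at 19.2, 45.5, 43.4 and 26.4 in NA MP and 2.57 to 7.004 in WT MP, was not. Cxcl10 was called with overlapping groups (1.49, adjusted p 0.0159) and lost its call without WT MP replicate 1 (0.0699) or WT MP replicate 4 (0.0543).

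**Figure D5:**
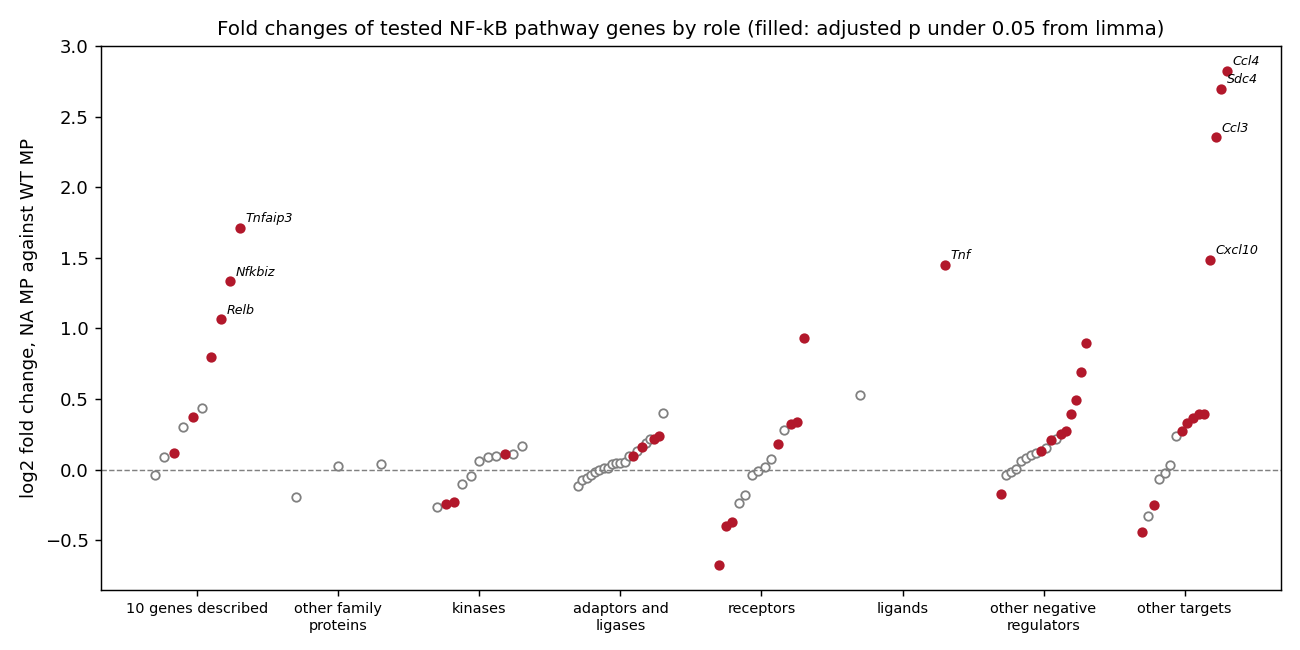
Log2 fold change of NA MP against WT MP for the 10 members and for the 85 tested genes of 7 other pathway lists, by role, each point a gene and filled where the adjusted p from limma was under 0.05. Called genes at a log2 fold change of at least 1 are named; none of them is a receptor, an adaptor or a kinase.

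RefSeq promoters (250 bases upstream of the start, GRCm38.p6) were searched for the kappaB consensus, the NF-kB binding motif, on both strands. An entry was found for 7 of the 10 members, with 12 promoters, and 6 of the 7 had a match in at least 1 promoter, or 8 of 12 promoters, where 3.90% of 32851 promoters and 4.46% of 27025 genes matched. Nfkb1, Relb and Nfkbiz have no entry. The sequences of Nfkbia and Nfkbie, which were called, and of Rel, which was not, are shown as examples that hold a match. Each is printed 5′ to 3′ on the gene's strand, with matched bases in capitals: Nfkbia from chr12:55492648-55492897 (minus strand), Nfkbie from chr17:45555450-45555699 (plus strand) and Rel from chr11:23770970-23771219 (minus strand).
Nfkbia: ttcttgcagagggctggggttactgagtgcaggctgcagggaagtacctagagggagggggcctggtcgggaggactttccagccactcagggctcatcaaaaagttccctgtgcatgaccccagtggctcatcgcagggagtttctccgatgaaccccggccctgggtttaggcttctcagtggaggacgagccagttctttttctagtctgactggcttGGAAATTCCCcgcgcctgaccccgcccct
Nfkbie: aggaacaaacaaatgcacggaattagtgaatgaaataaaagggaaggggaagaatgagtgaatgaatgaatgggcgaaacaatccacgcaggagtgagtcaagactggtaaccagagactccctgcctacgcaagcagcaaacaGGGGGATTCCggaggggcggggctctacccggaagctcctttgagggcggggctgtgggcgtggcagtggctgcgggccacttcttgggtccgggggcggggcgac
Rel: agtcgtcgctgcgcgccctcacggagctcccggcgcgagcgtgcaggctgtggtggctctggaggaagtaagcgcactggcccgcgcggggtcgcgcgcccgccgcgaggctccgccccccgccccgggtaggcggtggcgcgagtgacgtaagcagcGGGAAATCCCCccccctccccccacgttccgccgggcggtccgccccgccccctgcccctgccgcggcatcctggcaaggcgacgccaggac
The match lies 20 to 29 bases upstream of the start in Nfkbia, 97 to 106 in Nfkbie and 82 to 92 in Rel, where a pair of matches overlap. In Tnfaip3 a pair of matches lies 3 to 12 and 116 to 125 bases upstream of a RefSeq start that falls inside the gene's GENCODE span. Nfkb2 and Nfkbid also had a match, and Bcl3 did not.

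Over the 9 samples, the genes whose values followed the members' mean most closely, once each group's mean had been removed, were Bcl2l13 (Pearson r 0.97), Ngp (0.97), Hspa13 (0.97), Fancb (0.96) and Pmaip1 (0.96), out of 9458 genes compared. These r are a description over samples that share their group, and none of the 5 genes is on the immediate early list. They are the highest of the 9458, and how high the top r would be without any relation was not determined. The members' mean moved unevenly with its genes. With group means removed, the SD in NA MP was 0.78 for Tnfaip3 and Nfkbiz and 0.05 for Nfkb1 and Bcl3. Computed likewise against the immediate early mean, r was 0.94 for Nfkbia, 0.90 for Tnfaip3, 0.85 for Nfkbiz and 0.83 for Nfkbid. It was 0.35 for Rel, 0.28 for Bcl3, 0.26 for Relb, 0.19 for Nfkb2, -0.41 for Nfkbie and -0.68 for Nfkb1. Pmaip1 was higher in NA MP (log2 fold change 3.03, adjusted p 2.62e-05), as was Ngp (0.90, adjusted p 0.0188; without NA MP replicate 4, 0.83 at 0.0526, and without replicates 3 and 4, 0.58 at 0.134), and Bcl2l13 was lower (-0.22, adjusted p 3.73e-05). Hspa13 (-0.13, adjusted p 0.108) and Fancb (-0.17, adjusted p 0.365) were not called, although Hspa13 was without NA MP replicate 3 (0.0369), WT MP replicate 1 (0.0279) or NA MP replicates 3 and 4 (-0.25, adjusted p 0.00824). Without NA MP replicates 1 and 2, Hspa13 was -0.0082 (adjusted p 0.951).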

How the data were processed

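The deposited values have the unit signal: RSEM gene counts that the authors divided by a size factor per sample, although the table is named raw counts. Within a column, 97.6% of 132901 low values were whole multiples of a single step (tolerance 0.02 of a step), which gave the reads; median-ratio size factors of those reads, times the step, were 0.999 to 1.00. The authors' tools were bcl2fastq, RSEM and DESeq2 on mm10, without versions. Of 37980 genes, 20104 had any read and 11987 had at least 10 normalized counts in at least 4 samples. These were fitted as log2(normalized count + 1) with limma 3.58.1 in R 4.3.3 (trend, robust, no covariate), with Benjamini-Hochberg adjustment over all tested genes and calls at an adjusted p under 0.05. The interval level was 95%. A count-based test had been planned; limma, the pseudocount and the filter replaced it because the values are normalized, after results of a count-based fit were known, which called 1 more member, Nfkbid. Members and gene lists were chosen with earlier results of these data known. Named genes are the members, Rela, Nfkbib, the fusion partners and Hoxa9, the called genes of at least 2-fold in each pathway list or else its largest difference, the most abundant marker of each list over all samples, and the 5 genes most like the members (mean log2 CPM of at least 3). Other named genes, among them those of counts of 5 or fewer, were chosen after their values were seen. Replicate numbers do not pair samples. Exon lengths and coordinates come from GENCODE on GRCm38. Alternatives were other scalings, filters, pseudocounts, thresholds and tests, and fits without samples. The procedure was run on simulated data, whose results are not given here and carry no weight for the calls above.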

Additional observations from a re-analysis of the deposited data

Results flagged for a closer look

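Among 26 groups of samples looked at, 1 held a sample far from the others, where 1.3 would be flagged by chance. In WT MP replicate 4, Rela measured 505.3 normalized counts, below the other WT MP samples at 530.5 to 540.4.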

How the results depend on the processing

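Over 21 alternatives, 16 planned and 5 chosen after seeing the data (pseudocounts of 0.5 and 5, limma voom on recovered reads, and leaving out NA MP replicates 3 and 4 or 1 and 2), the 10 members gave 210 results, of which 193 kept their direction and side of the threshold, 10 lost a call, 5 gained a call and 2 changed sign. Leaving out a single sample gave 5 to 7 members higher and 0 lower, 3549 to 3937 genes called (1723 to 1949 higher, 1783 to 1988 lower) and 29 to 33 other pathway genes called (23 to 25 higher, 6 to 8 lower). At an adjusted p under 0.01, 1376 genes were lower and 23 other pathway genes were called, 5 of them lower, by construction. With a replicate block, which also leaves out the unpaired WT MP replicate 5, 3664 genes (1861 higher, 1803 lower) and 7 members were called; without that sample alone, 3689 and 6. Without NA MP replicates 1 and 2, 23 other pathway genes were called, 17 of them higher, with fewer samples. The results with sign changes were not called with all samples: log2 fold changes over the single-sample fits ran from -0.086 to 0.0012 for Nfkb2, -0.015 to 0.13 for Rel, -0.013 to 0.065 for Rela, -0.23 to 0.067 for Cd74 and -0.019 to 0.068 for Nfkbib, which was -0.019 without WT MP replicate 5, with or without the replicate block, and, without NA MP replicates 1 and 2, Fancb was 0.066 and Cd74 0.17 (called, adjusted p 0.0330); the cause was not tested. Under equal totals 44.3% of called genes were higher, against 49.4%. The planned DESeq2 fit was not run and the planned edgeR fits were replaced by limma, because the values are normalized. With few samples left above the filter, Hoxa10, Tlr1, Ltb, Cxcl10, Ccl3, Ccl4, Sdc4, Lck, Cd22 and Mmp8 have no value under some alternatives. Among the members, Relb has the fewest reads, 11 to 39 a sample.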
